A study of Mus musculus with 96 samples.

Results

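Ribosome footprints per mRNA were described in the wild-type neural tube, the embryonic tissue that forms brain and spinal cord, of mouse embryos at E11.5. The wild-type samples are 48 of the 96 sequencing-lane samples of the series, or 6 of its 12 libraries, and they consist of 3 RNA-seq libraries and 3 ribosome-footprint libraries. Of 22446 genes with coding counts, 13753 passed the filter on low counts and were tested. The embryos were C3HeB wild types with no mutant allele or treatment named in the labels. Neural tubes of 1 litter were dissociated with papain, and the cells of each pool were divided between a tube for poly(A)-selected RNA, broken by alkali to 30 to 50 nt, and a tube for footprints of 28 to 31 nt. The footprint lysate contained cycloheximide, which holds ribosomes on their mRNA, was cleared of nuclei and mitochondria, and was then digested with RNase I. The other 6 libraries came from heterozygous Eif3c Xs-J embryos of the same age, processed alike, and are used only as a comparison. Whether the 3 wild-type pools were 3 separate litters is not said in the labels. The p-values therefore cover only how far these pools differed from each other, and that spread may be technical.

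Ribosome profiling digests all mRNA that a ribosome does not cover, so a footprint marks the place of a ribosome on its mRNA. The number of footprints on a coding sequence, relative to the amount of that mRNA, is called translational efficiency and is taken as a guide to how often ribosomes start on it. In most mRNAs ribosomes scan from the 5′ cap to the first suitable AUG, and an upstream AUG, a structured leader or a binding protein can lower the number that reach the coding sequence. Slow or stalled ribosomes also give footprints, and a gene with many footprints per mRNA need not make more finished protein.

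The value given for each gene is the log2 ratio of its footprints to its RNA, both in CPM, the gene's coding counts scaled to a library total of 1000000. Each assay is scaled to its own total, so a log2 ratio of 0 stands for an mRNA near the average of the tissue, and the ratios hold no absolute rate. RNA libraries held 7206193 to 13147970 coding counts and footprint libraries 17293386 to 59253166. Coding sequence took 58.7 to 60.3% of RNA counts and 85.6 to 85.7% of footprints, whereas 3′ untranslated regions (UTRs) took 34.7 to 36.4% of RNA counts and 1.51 to 1.59% of footprints. The tissue was checked by its markers: the summed level of 43 neuronal genes was 17349 to 17906 CPM in RNA, that of 20 neural progenitor genes 5955 to 6228 CPM, and that of 18 erythroid markers 2868 to 3504 CPM. Endothelial markers summed to 445 to 515 CPM, mesenchyme markers to 588 to 984 CPM, neural crest and ganglion markers to 398 to 463 CPM and macrophage markers to 54.9 to 80.8 CPM, and the part of these other cells in the results was not tested. In such bulk samples fewer cells of a type and less RNA per cell cannot be told apart.

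Footprints per mRNA differed widely between genes and little between pools. The middle 50% of genes lay between -0.65 and 0.53 (log2), the lowest 1% below -4.36 and the highest 1% above 1.44, with a median of 0.03. The distribution was lopsided, with a longer tail toward few footprints: 1779 genes were at least 2-fold below parity and 361 at least 2-fold above it by edgeR's test against a 2-fold limit (12.9% and 2.62% of those tested, adjusted p under 0.05). Without that limit, edgeR's paired quasi-likelihood test called 5638 genes higher (41%) and 5414 lower (39.4%), or 80.4% of all genes in either direction, so a call in this test alone says little about any one gene. The SD of a gene's ratio over the 3 pools was 0.112 at the median, and the ratios of any 2 pools correlated across genes with Pearson r between 0.958 and 0.961, a description over 13753 genes that are not independent.

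**Figure D1:**
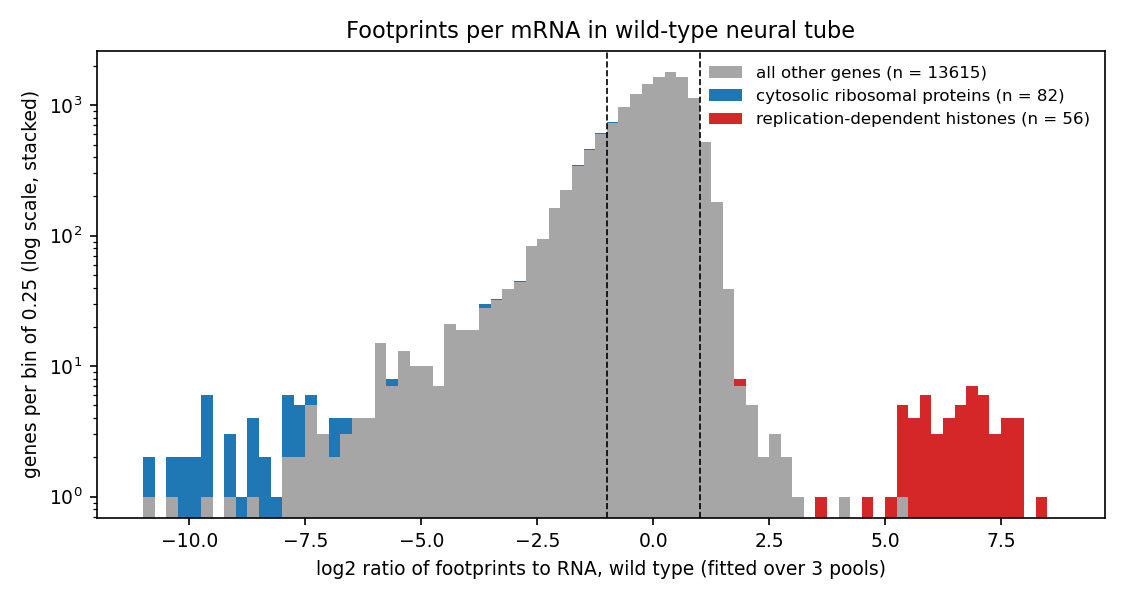
Number of genes (log scale) by log2 ratio of footprints to RNA in wild-type neural tube, for all 13753 genes tested, with replication-dependent histones shown apart. The bulk lies between -2 and 2 with a long tail to the left, and the histones lie far to the right.

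A footprint read that matches several genes can be counted for none or for the wrong one, and a gene whose sequence has near-identical copies elsewhere then gets a ratio that cannot be read as translation. Among tested genes, 2084 (15.2%) had over 10% of the 29-nt stretches of their coding sequence in transcripts of another gene. Of the 15 highest and 15 lowest genes picked from all genes, 5 and 9 were shared or overlapped another gene beyond this limit. Among the lowest were Ppia (-7.39, 99.4% of its 29-nt stretches shared), Actg1 (-6.64, 100% shared) and Tmsb10 (-5.44, 100% shared), and their ratios are not read as translation here. The extremes below come instead from the 10199 protein-coding genes, histones and mitochondrially encoded genes aside, with at most 10% of stretches shared and at most 10% of the coding sequence overlapping another gene, a limit chosen after the data were seen. In this set 243 genes were 2-fold higher and 1279 were 2-fold lower.

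Among genes with little shared sequence that averaged 10 CPM or more, the highest ratio was that of Hba-x, the embryonic zeta globin (chr11:32276400-32278116, mm10). It had 468, 767 and 589 CPM in the RNA of pools 1 to 3 and 3073, 3219 and 3527 CPM in their footprints, a log2 ratio of 2.45 ± 0.067 (SE) or 5.47-fold. RNA and footprints of the 3 pools were far apart, although the RNA of pool 1 was lower than that of the others. Next came Dpysl2, which encodes CRMP2, a tubulin-binding protein of growing axons (chr14:66802864-66868688). It had 502, 549 and 511 CPM in the RNA of pools 1 to 3 and 2248, 2258 and 2304 CPM in their footprints, 4.36-fold higher (2.12 ± 0.040 (SE); edgeR adjusted p = 2.52e-21 against the 2-fold limit). Each pool gave nearly the same value. Dcx, doublecortin of migrating neurons, had 348, 365 and 351 CPM of RNA against 990.3, 994 and 1098 CPM of footprints (1.53 ± 0.042 (SE)). Ywhag, a 14-3-3 adaptor, had 240.4, 246 and 237 CPM of RNA against 737, 728 and 731 CPM of footprints (1.60). Kdelr2, the receptor that returns chaperones to the endoplasmic reticulum (ER), had 45.2, 39.8 and 44.0 CPM of RNA against 145, 136 and 143 CPM of footprints (1.72), and Chrna3, a nicotinic acetylcholine receptor subunit, 43.0, 54.1 and 53.3 CPM of RNA against 152, 179 and 164 CPM of footprints (1.72). In none of these genes did an RNA value reach a footprint value. Also high were Tbx20, a transcription factor of cranial motor neurons (1.72), Laptm5, a lysosomal membrane protein of blood cells (1.70), the ceramide synthase Cers6 (1.63), Tmsb4x, an actin-monomer-binding thymosin (1.47), and the embryonic globin Hbb-bh1 (1.5). Ncam1, the neural cell adhesion molecule, shares no stretch but overlaps another gene, and at 2.01 it would rank beside Dpysl2.

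**Figure D2:**
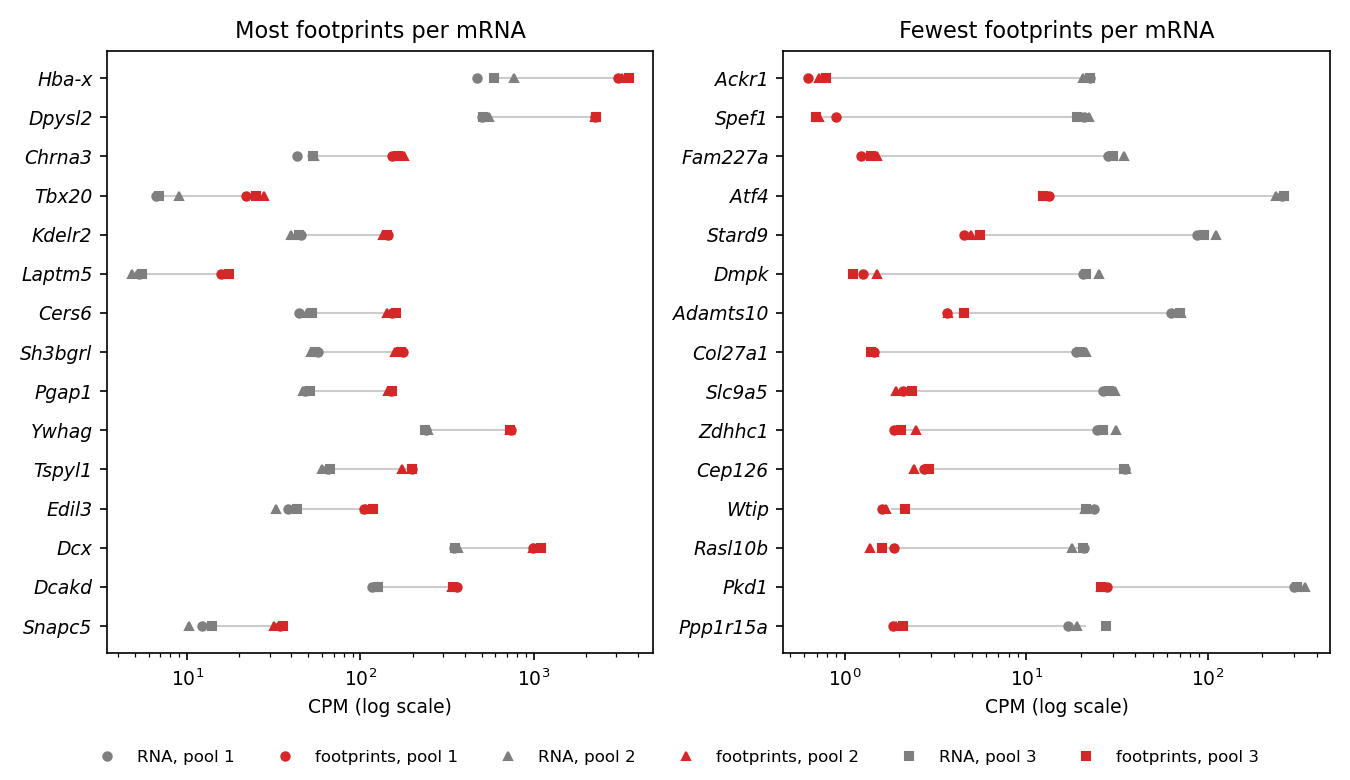
CPM (log scale) in each wild-type pool, RNA in grey and footprints in red, for the 15 genes with the highest and the 15 with the lowest ratio among genes with little shared or overlapping sequence and a mean of at least 10 CPM. In each of the 30 genes the 3 pools lie close together and the RNA and footprint values do not overlap.

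By the same rule the lowest ratio was that of Ackr1, the atypical chemokine receptor of erythroid and venular cells (chr1:173331886-173333750). It had 22.4, 20.6 and 22.6 CPM in the RNA of pools 1 to 3 and 0.630, 0.722 and 0.790 CPM in their footprints, 31.5-fold lower (-4.98 ± 0.15 (SE); edgeR adjusted p = 1.07e-19 against the 2-fold limit). Spef1, a microtubule protein of motile cilia, had 20.9, 22.2 and 19.1 CPM of RNA against 0.892, 0.722 and 0.695 CPM of footprints (-4.68). Atf4, the transcription factor of the integrated stress response, was an abundant mRNA in this group (chr15:80255184-80257541). It had 258, 238 and 263 CPM in the RNA of pools 1 to 3 and 13.4, 12.9 and 12.4 CPM in their footprints, 19.6-fold lower (-4.30 ± 0.056 (SE), adjusted p = 8.96e-29), with no overlap between the assays. Stard9, a mitotic kinesin, had 87.0, 112 and 95.2 CPM of RNA against 4.53, 4.93 and 5.56 CPM of footprints (-4.26), and Pkd1, the polycystin of primary cilia, 298, 343 and 311 CPM of RNA against 27.9, 25.8 and 25.7 CPM of footprints (-3.56). These long coding sequences, of 4562 and 4294 codons, held few footprints for their RNA in every pool. CPM are not divided by length, so these values do not rank their RNA against that of shorter mRNAs. Also in this group were Fam227a (-4.50), the kinase Dmpk (-4.10), the matrix protease Adamts10 (-4.08), the collagen Col27a1 (-3.77) and the sodium-proton exchanger Slc9a5 (-3.72). In bulk poly(A) RNA, spliced coding mRNA and other transcripts of the same exons are counted together.

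The bases around the start codon set how readily a scanning ribosome stops there, a purine 3 bases before the AUG and a G just after it being favourable. The annotated start sites of 4 of the most translated genes and of 4 low ones are shown for this reason. Of the low ones, Ackr1, Spef1 and Atf4 are among the lowest, and Smo, at -2.36, is less extreme. The sequences are from GENCODE vM21 transcripts on mm10, with the base at -3 and the start codon with its following base in capitals.
Dpysl2: ccccggaGagATGTcttatcaggggaagaa
Hba-x: caccaccAccATGTctctgatgaagaatga
Ywhag: ccctgtgAagATGGtggaccgcgagcaact
Chrna3: ggtcctgTccATGCggtcttcagacatggg
Ackr1: ctgcagtGccATGGggaactgtctgtatcc
Spef1: tctggatCcaATGGaaagcagcgtggatga
Atf4: gccccacAacATGAccgagatgagcttcct
Smo: ctgtttgGccATGGccgctggccgccccgt
A purine at -3 stood in 90% of the 2-fold higher genes, 85.5% of all genes with little shared sequence and 80.1% of the 2-fold lower ones. Single genes did not sort by these letters: Chrna3 lacks the purine and had many footprints, and Ackr1 and Smo have both favourable letters and had few. Over the whole set the median ratio was 0.08 for 4378 genes with both letters, 0.02 for 4055 with the purine only, -0.15 for 743 with the G only and -0.14 for 694 with neither.

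Upstream AUGs went with lower ratios in a graded way. Among genes with little shared sequence the median was 0.28 for 4719 genes with no AUG in the annotated 5′ UTR, -0.05 for 2294 with 1, -0.33 for 1762 with 2 or 3, -0.45 for 833 with 4 to 7 and -0.53 for 277 with 8 or more. The share of 2-fold lower genes went over the same groups from 6.61% to 28.2%. Longer leaders hold more AUGs, and the medians also went from 0.15 for leaders of 10 nt to under 50 nt to -0.40 for leaders of 800 nt or more. Within leaders of at least 100 and under 200 nt the order by upstream AUGs was kept, with medians of 0.29, -0.09, -0.33 and -0.55 for none, 1, 2 or 3, and 4 or more. Ratios also went with the place of the footprints themselves: 286 genes with 50% or more of their footprints in the 5′ UTR had a median of -1.18, and 46.2% of them were 2-fold lower. Coding footprints enter both measures, so part of this relation is built in.

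Short coding sequences held higher ratios than long ones. Genes of at least 100 and under 200 codons had a median of 0.61, those of at least 400 and under 800 codons -0.02 and those of 1600 codons or more -0.66. Of the longest group 28.5% were 2-fold lower, against 4.69% of genes under 100 codons. The median 2-fold higher gene had 297 codons and the median 2-fold lower gene 723, against 516 for all genes of the set. Abundant mRNAs were also more densely covered: at 320 RNA CPM per kb or more the median was 0.70 (115 genes), and at 20 to under 80 CPM per kb it was 0.00 (4086 genes). Coding GC of 60% or more went with -0.20, and GC of 50 to 55% with 0.13. These features go together in mammalian genes, and their separate parts were not tested.

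**Figure D3:**
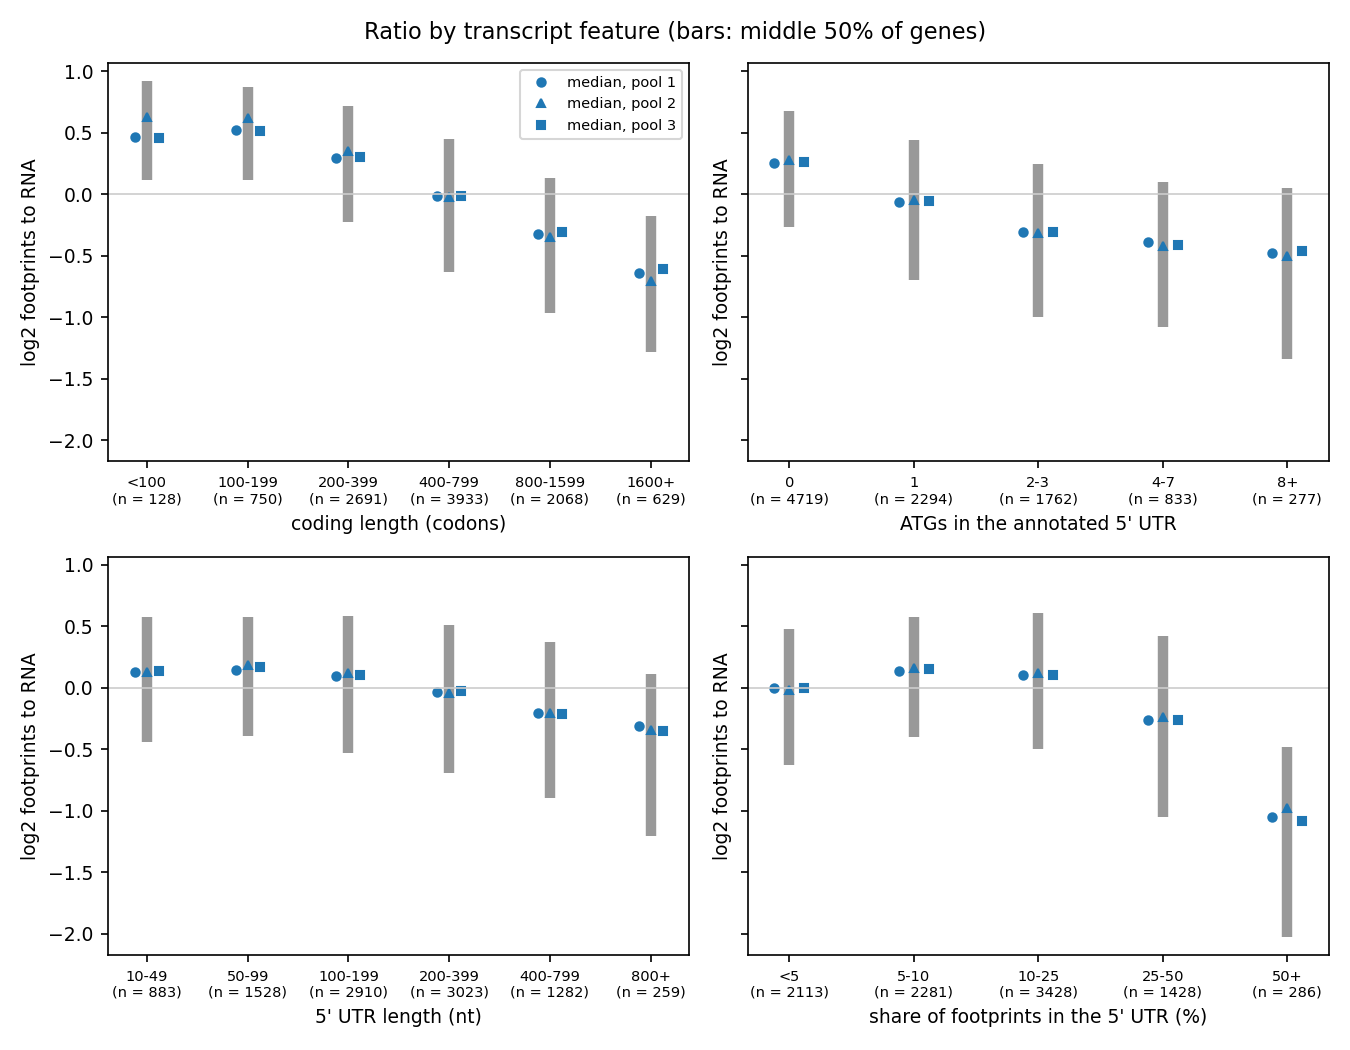
Median log2 ratio of footprints to RNA (points, 1 for each wild-type pool) and the middle 50% of genes (grey bars) by coding length, ATGs in the 5′ UTR, 5′ UTR length and share of footprints in the 5′ UTR, for genes with little shared sequence. Medians fall with the number of upstream AUGs, and with coding length above 100 codons, in all 3 pools, and the 3 points of a bin lie close together.

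The mRNAs known to be controlled by upstream reading frames mostly had few footprints on the coding sequence. Of 18 genes listed as such, 14 were lower and 3 higher, 7 of the lower ones beyond 2-fold, with a median of -0.85 beside 0.03 for all genes. Over all genes 39.4% were lower and 12.9% beyond 2-fold lower. Atf4 led this list among genes with little shared sequence. Ppp1r15a, the GADD34 subunit that ends the stress response, had 17.0, 19 and 27.4 CPM of RNA against 1.85, 1.93 and 2.09 CPM of footprints (-3.41 ± 0.13 (SE)). Atf5, a factor related to Atf4, had 15.5, 14.5 and 14.8 CPM of RNA against 1.84, 1.32 and 1.64 CPM of footprints (-3.18 ± 0.14 (SE)), and Ifrd1 106, 103 and 114 CPM of RNA against 27.6, 23.0 and 25.6 CPM of footprints (-2.07 ± 0.060 (SE)). Ddit3, the proapoptotic factor CHOP, stood at -2.41. Atf4 kept 79.1% of its footprints in the 5′ UTR, where 20.5% of its RNA counts lay, and Ppp1r15a 78.8% against 11.4% (of the 5′ UTR and whole coding sequence combined, 3 pools summed). The upstream AUGs of both mRNAs are shown, since most of their footprints lay in the 5′ UTR, with the AUG (ATG in these DNA letters) in capitals. The place of footprints within the 5′ UTR was not analysed here.
Atf4, 475 nt before the start: ttttctctcATGgggccttta
Atf4, 196 nt before the start: gcggccaccATGgcgtattag
Atf4, 97 nt before the start: gcctaagccATGgcgctcttc
Ppp1r15a, 249 nt before the start: gcgtggacgATGttggcgcag
Ppp1r15a, 205 nt before the start: gaagattacATGcgatatccc
Ppp1r15a, 104 nt before the start: gagggcgacATGaacccgctg
In Atf4 they open frames of 36, 3 and 59 codons. The last is out of frame and runs over the coding start, with its stop codon 80 nt inside, a layout known to keep ribosomes that translate it from the Atf4 start. In Ppp1r15a they open frames of 45, 34 and 26 codons, and all 3 end before the coding start.

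Immediate early genes, transcription factors switched on within minutes of a stimulus, split: of 24 tested, 7 were higher and 9 lower, 6 beyond 2-fold, with a median of -0.06. Over all genes 41% were higher, 39.4% lower and 12.9% beyond 2-fold lower. Fos had 31.3, 32.1 and 77.4 CPM of RNA against 3.46, 3.91 and 9.01 CPM of footprints (-3.11 ± 0.088 (SE)). Its RNA in pool 3 was above that of pools 1 and 2, and its footprints were too. Fos kept 63.2% of its footprints in the 5′ UTR against 10.4% of its RNA, although its annotated leader holds no AUG. Fosb (-3.49), Nr4a1 (-3.28) and Egr1 (-2.91) were low as well. Myc, annotated with a CUG start, was higher (1.08), and Jun was not called (-0.03 ± 0.066 (SE), edgeR adjusted p = 0.632).

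Chaperones of the secretory pathway, neuronal genes and red-cell genes had high ratios. All 16 ER chaperones and folding enzymes were higher, 6 beyond 2-fold, where 41% and 2.62% of all genes were, with a median of 0.96. Calr, the calcium-binding chaperone calreticulin, had 613, 625 and 628 CPM of RNA against 1474, 1788 and 1631 CPM of footprints (1.39 ± 0.042 (SE)), and Hsp90b1 stood at 1.26. Among 43 pan-neuronal genes, 39 were higher and 3 lower, 5 beyond 2-fold higher, with a median of 0.84. All 7 globins were higher (median 1.21), and Hbb-y, the major embryonic beta chain, had 1549, 1769 and 1862 CPM of RNA against 4236, 4254 and 4868 CPM of footprints (1.37). Of 18 erythroid markers, 16 were higher (median 1.07), and their summed level was 2868 to 3504 CPM in RNA and 9343 to 10597 CPM in footprints. The RNA and footprint tubes were filled from 1 cell suspension, and whether they held the same share of red cells was not tested.

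Most genes of the housekeeping complexes were higher, where 41% of all genes were. The respiratory chain and ATP synthase subunits encoded in the nucleus had 64 higher and 2 lower of 71 (median 0.65), and mitochondrial ribosomal proteins 66 and 5 of 76 (median 0.66). The proteasome had 28 of 31 higher (0.67), cholesterol synthesis 17 of 22 (0.67), cytosolic tRNA synthetases 21 of 22 (0.55) and chaperonin and heat shock proteins 16 of 19 (0.61). The 2-fold limit was passed by 7 of 71 respiratory chain genes, a larger share than the 2.62% of all genes. It was passed by 2 of 76 mitochondrial ribosomal proteins and 0 of 22 tRNA synthetases. Respiratory chain and mitochondrial ribosomal protein genes are short, with list medians under 200 codons (145 for the respiratory chain). Among genes with little shared sequence their medians were 0.71 and 0.74, beside 0.61 for genes of at least 100 and under 200 codons. For tRNA synthetases (median 628.5 codons) that median was 0.55, beside -0.02 for genes of at least 400 and under 800 codons. The part of coding length in these lists was not tested. Tubulins and actins had a median of 0.69, with 12 of 16 higher. At the median they shared 69.2% of their 29-nt stretches with other genes, and the 4 with little shared sequence had a median of 0.94. Actb, cytoplasmic beta-actin, had 2400.3, 2263 and 2346 CPM of RNA against 5767, 5816 and 5849 CPM of footprints (1.31 ± 0.036 (SE)), with 47.55% shared. Thymosins and other small actin or growth proteins had 12 of 15 higher (0.72). Glycolysis (12 of 16, 0.51), collagens and matrix (21 of 25, 0.54), mitosis (23 of 29, 0.43), DNA replication (29 of 35, 0.43) and hnRNP and SR splicing factors (23 of 30, 0.43) were also mostly above the median of all genes.

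**Figure D4:**
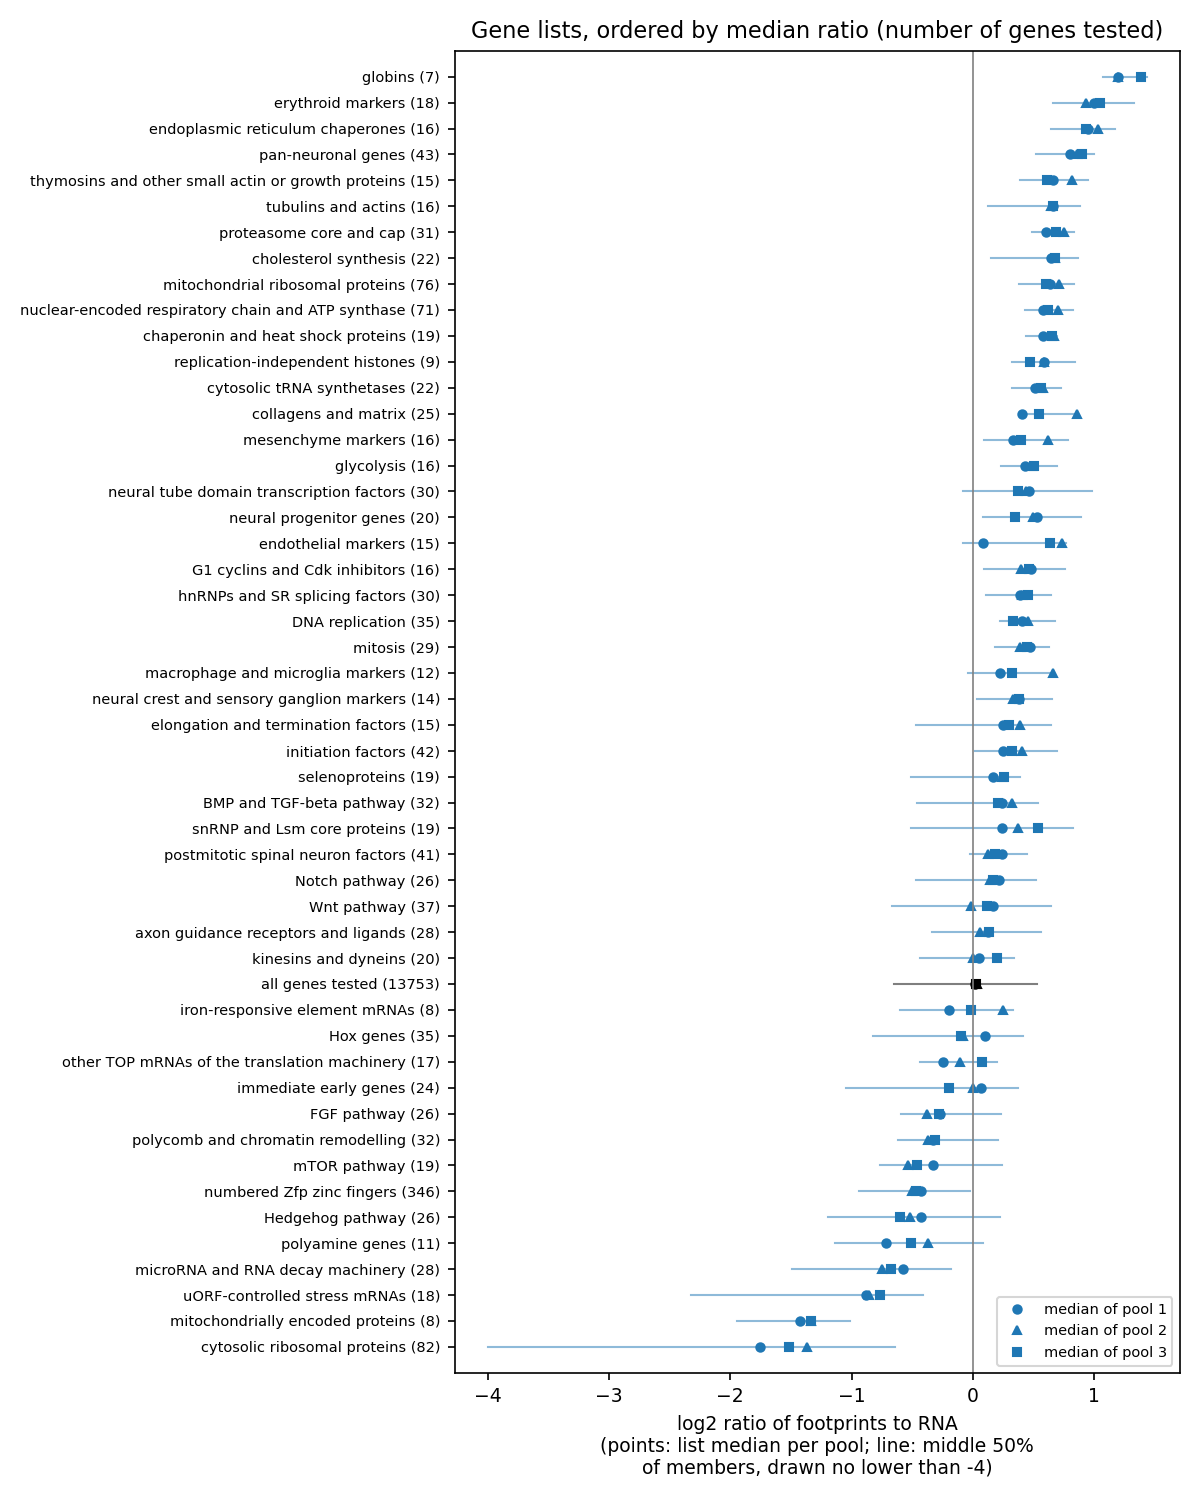
Median log2 ratio of footprints to RNA for each gene list in each of the 3 wild-type pools (points) and the middle 50% of its members (lines), with all genes tested for reference. Lists run from globins and ER chaperones at the top to stress mRNAs, mitochondrially encoded genes and cytosolic ribosomal proteins at the bottom, and replication-dependent histones, which are far to the right, are left out.

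The Hedgehog pathway, which patterns the ventral neural tube, had a list median below that of all genes. Of its 26 genes, 17 were lower and 7 higher, 9 beyond 2-fold lower, and the median was -0.50. Of all genes tested, 39.4% were lower, 41% higher and 12.9% beyond 2-fold lower. The ligand Shh had 41.6, 42.8 and 30.0 CPM of RNA against 40.3, 54.5 and 45.4 CPM of footprints (0.28 ± 0.080 (SE), edgeR adjusted p = 0.00228). The ranges of its assays overlapped, and its RNA was lowest in pool 3. Its receptor Ptch1 had 230.5, 271 and 231 CPM of RNA against 73.3, 72.0 and 67.2 CPM of footprints (-1.78 ± 0.049 (SE)). Smo, the transducer that Ptch1 holds in check, had 127, 130.4 and 122 CPM of RNA against 23.3, 26.7 and 24.2 CPM of footprints, 5.14-fold lower (-2.36 ± 0.056 (SE), edgeR adjusted p = 1.55e-19 against the 2-fold limit). Gli1, the transcriptional effector that is also a target, had 20.3, 23.1 and 20.9 CPM of RNA against 4.64, 4.99 and 4.39 CPM of footprints (-2.19). Receptors and effector were thus low in every pool, with no overlap. Gli2 (-0.38) and Gli3 (-0.58) were lower by less. The ciliary protein Evc stood at -2.24, whereas the inhibitors Sufu (0.77) and Hhip (0.80) were higher. Ptch1 and Smo carry 2 upstream AUGs each, and 1 of each is shown because both messages were low.
Ptch1, 184 nt before the start: tcacgcgcaATGtggcaatgg
Smo, 201 nt before the start: ctgctcaacATGgggcccggg
The Ptch1 AUG shown opens a frame of 66 codons that runs over the coding start, and the Smo AUG shown a frame of 35 codons that ends before it. The other Ptch1 AUG, 176 nt before the start, opens 22 codons, and the other Smo AUG, 313 nt before it, 13 codons, and both frames end before the start.

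Other signalling pathways spread around the average, beside 41% of all genes higher and 39.4% lower. Wnt genes had 18 higher and 16 lower of 37 (median 0.11), Notch genes 13 and 11 of 26 (0.17), BMP and TGF-beta genes 18 and 10 of 32 (0.27), and FGF genes 7 and 12 of 26 (-0.29). Each pathway held both ends. Among Wnt genes the secreted modulator Sfrp2 was higher (1.21), and the agonist Rspo1 (-3.14) and the transducer Dvl1 (-2.62) were lower. In Notch signalling the ligand Dner stood at 1.22 and the glycosyltransferase Mfng at -2.10. Tgfb2 stood at 1.31 and the inhibitory Smad6 at -2.68, and Fgf15 at 1.25 and the feedback inhibitor Spry1 at -1.84.

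Transcription factors of cell identity had list medians near or above that of all genes. Called higher were 41% of all genes, and lower 39.4%. Of 30 factors that mark dorsoventral domains, 20 were higher and 5 lower (median 0.50). Atoh1, the proneural factor of dorsal interneurons, was high (1.20), and Zic4 was lower (-1.59). Neural progenitor genes had 15 of 20 higher (0.46), with Sox3 at 1.25 and Sox2 at 0.28, and Pax6 lower at -0.41. Factors of postmitotic spinal neurons had 20 higher and 9 lower of 41 (0.19), with the proneural factor Neurod4 at 1.38. The Hox family, which patterns the embryo from head to tail, had 13 higher and 15 lower of 35 (-0.03). Beyond 2-fold, 8 Hox genes were lower and 0 higher, where 12.9% and 2.62% of all genes were. Their ends were Hoxc11 at 1.01 and Hoxb3, which had 272, 274 and 271 CPM of RNA against 56.8, 55.3 and 65.4 CPM of footprints (-2.21 ± 0.050 (SE)). Axon guidance genes had 14 higher and 10 lower of 28 (0.08). Robo3, the receptor of commissural axons crossing the midline, was an abundant RNA with few footprints, 786, 986 and 996 CPM of RNA against 235, 257 and 267 CPM of footprints (-1.86 ± 0.042 (SE)). Kinesins and dyneins lay at 0.08 (9 higher and 7 lower of 20).

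Markers of cells other than neural tube cells gave ratios in the same range. Higher were 8 of 14 crest and ganglion markers (0.43), 10 of 15 endothelial markers (0.46), 10 of 16 mesenchyme markers (0.54) and 7 of 12 macrophage markers (0.43). Over all genes tested 41% were higher.

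Zinc-finger, RNA decay, polycomb and mTOR genes had list medians below that of all genes. Of all genes 39.4% were lower, 12.9% beyond 2-fold lower and 41% higher. The 346 numbered Zfp zinc-finger genes had 221 lower and 50 higher (median -0.46), and 64 were beyond 2-fold lower and 0 beyond 2-fold higher. MicroRNA and RNA decay factors had 21 lower of 28 (-0.68), 9 beyond 2-fold. Trim71, an RNA-binding protein that is itself a target of let-7, had 24.0, 31.6 and 21.3 CPM of RNA against 4.2, 6.56 and 4.87 CPM of footprints (-2.32 ± 0.11 (SE)), and Smg1, the kinase of nonsense-mediated decay, 525, 575 and 576 CPM of RNA against 139.7, 134 and 143 CPM of footprints (-2.01 ± 0.043 (SE)). Of the let-7 antagonists, Lin28b stood at -1.70 and Lin28a at -0.46. Polycomb and remodelling genes had 19 lower and 11 higher of 32 (-0.34), with 5 beyond 2-fold lower, and mTOR pathway genes 12 and 4 of 19 (-0.43). Among G1 regulators, 11 of 16 were higher (0.44), but E2f1, the S-phase transcription factor, had 90.4, 97.5 and 89.6 CPM of RNA against 16.7, 15.6 and 13.1 CPM of footprints (-2.60 ± 0.068 (SE)), and the Cdk inhibitor Cdkn2c stood at -3.30. Core snRNP and Lsm proteins had 11 of 19 higher (0.24).

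Small groups under dedicated translational control were mixed, beside 41% of all genes higher and 39.4% lower. Polyamine genes, regulated by polyamine-dependent frameshifting and upstream frames, had 7 lower and 2 higher of 11 (-0.57). Odc1, the first enzyme of the pathway, stood at -1.81 and its inhibitor antizyme, Oaz1, at 1.32, with 83.7% and 91.3% of their stretches shared with other genes. Messages with an iron-responsive element had 3 higher and 3 lower of 8 (-0.01), and Fth1, the ferritin heavy chain, stood at -1.44. For Fth1 the percentage of shared stretches was not computed. Selenoproteins, which read a UGA codon as selenocysteine, had 10 higher and 8 lower of 19 (0.28).

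The translation machinery itself was divided, beside 41% of all genes higher and 39.4% lower. Initiation factors had 27 higher and 10 lower of 42 (median 0.33). Eif3c, the subunit mutated in the other genotype of the series, had 498, 477 and 453 CPM of RNA against 784, 767 and 766 CPM of footprints in wild type (0.70 ± 0.039 (SE)), with 13.8% of its stretches shared. Eif4h, a helicase cofactor, was high (1.12). Eif4g2, the scaffold of cap-independent initiation, was low, with 3431, 3270.3 and 3448 CPM of RNA against 1151, 1048 and 1096 CPM of footprints (-1.62 ± 0.037 (SE)). Its annotated start is a GUG, shown with the base at -3 in capitals: agccgccAaaGTGGagagtgcgattgcaga. Elongation and termination factors had 8 higher and 6 lower of 15 (0.33), with Eef1a1 at -0.65 and 89.0% of its stretches shared. Other messages of the translation machinery with a 5′ terminal oligopyrimidine (TOP) tract had 5 higher and 8 lower of 17 (-0.04). Over all genes with little shared sequence, 208 whose annotated transcript starts with a C and at least 4 pyrimidines had a median of 0.16, and 9331 others 0.02.

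Cytosolic ribosomal proteins, the best known TOP mRNAs, had a median of -1.51, with 72 of 82 lower, 51 beyond 2-fold, and 8 higher. Over all genes 39.4% were lower, 12.9% beyond 2-fold lower and 41% higher. These genes have many processed pseudogenes, and their ratios moved with shared sequence. The 46 genes with over 95% of their 29-nt stretches shared had a median of -7.73, 30 of them held under 1 CPM of footprints, and 12 of all the ribosomal protein genes had 0 footprints in all 3 pools. With genes at 0 set to the bound that 3 counts over the group allow, the median of the 46 was -7.19. Rpl10, for example, had 12.6, 8.04 and 6.51 CPM of RNA and 0 footprints, which is at least 318-fold lower. The 5 genes with up to 25% shared had a median of -0.52, from -2.84 (Rps12) to 0.18 (Rpl8), and the 7 with 25 to 75% shared -0.25. Rpl8 (11.3% shared) had 801, 733 and 755 CPM of RNA against 872, 843 and 875 CPM of footprints (0.18 ± 0.038 (SE)), and Rpl4 (41.9% shared) 1252, 1086 and 1075 CPM of RNA against 978, 956 and 924 CPM of footprints (-0.25 ± 0.039 (SE)). Both abundant messages stayed within 2-fold of the average in every pool. For the genes with nearly complete copies, few ribosomes per mRNA and reads lost to the copies cannot be told apart.

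**Figure D5:**
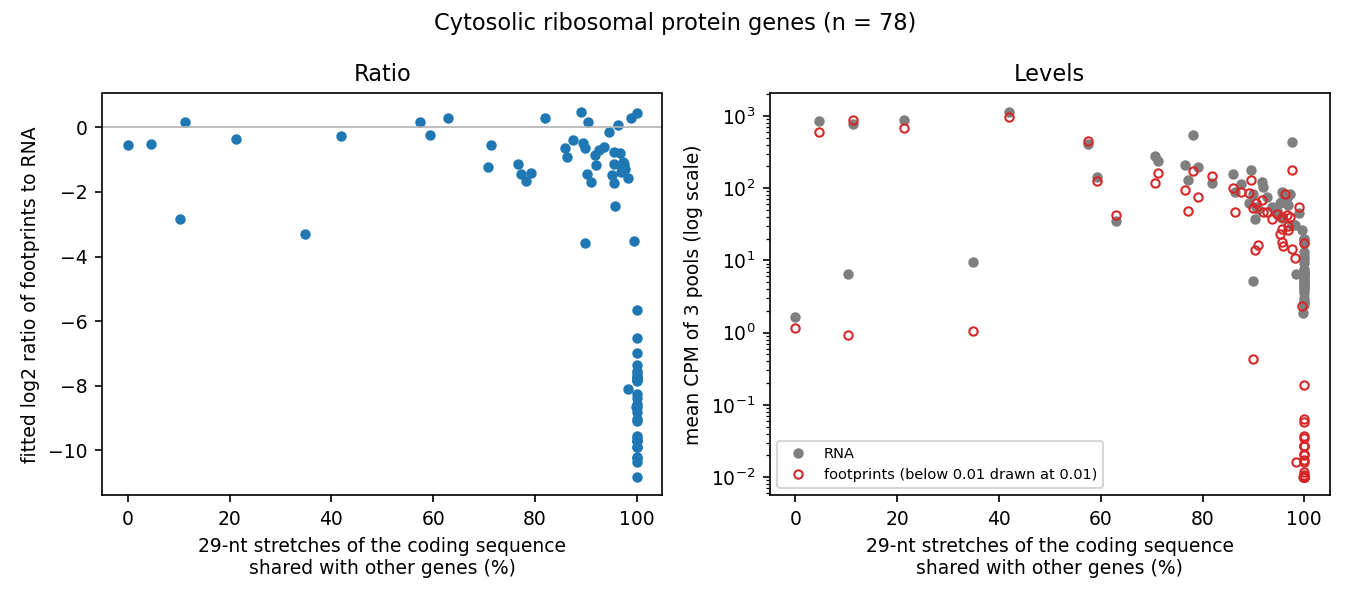
Fitted log2 ratio of footprints to RNA (left) and mean CPM of the 3 pools (right, log scale, RNA in grey and footprints as red rings) for 78 cytosolic ribosomal protein genes, against the percentage of 29-nt coding stretches that occur in transcripts of another gene. For 4 further genes the percentage was not computed. The genes with up to 25% shared lie between -2.84 and 0.18, and those with over 95% shared have a median of -7.73.

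Mitochondrially encoded messages are translated inside the organelle, by its own ribosomes, and the footprint lysate was cleared of mitochondria. Of 13 such genes 8 passed the filter on low counts, and mt-Nd4l, mt-Co2, mt-Co3, mt-Atp6 and mt-Atp8 did not. Of the 8 tested, 7 were lower and 1 higher (median -1.36), where 39.4% of all genes were lower and 41% higher. At the median they shared 16.6% of their 29-nt stretches with other genes. The 3 with at most 10% shared had a median of -1.39. mt-Nd3, with 98.1% shared, had 0 counted footprints, but 1098 footprint counts over its whole coding sequence. The complex I gene mt-Nd1 had 2804, 1886 and 2623 CPM of RNA against 684, 546 and 678 CPM of footprints (-1.93 ± 0.042 (SE)), and mt-Cytb stood at -1.39. In the mutant their median was -2.55, and 6 of the 8 differed between genotypes by edgeR's interaction test, each lower in the mutant, where 0.9% of all genes were called. How much of these values came from the removal of mitochondria, and how much from shared sequence, was not tested.

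Replication-dependent histone mRNAs end in a stem-loop in place of a poly(A) tail, so poly(A) selection loses them from the RNA libraries and not from the footprints. Their ratios are set apart for that reason and are not values of translation. All 55 tested by name were higher, 54 beyond 2-fold, where 41% and 2.62% of all genes were, with a median of 6.6. With Hist3h2a added there were 56 genes, whose sum was 217, 211 and 212 CPM in RNA and 16623, 16291 and 13523 CPM in footprints. Hist1h4f had 0.673, 1.40 and 1.06 CPM of RNA against 359.9, 357 and 310.0 CPM of footprints (8.29 ± 0.098 (SE)). The linker histone Hist1h1a, with 0.651% of its stretches shared, had 4.82, 6.34 and 4.12 CPM of RNA against 1242, 1236 and 945 CPM of footprints (7.78 ± 0.069 (SE)). By class the medians were 7.58 for 5 H1 genes, 5.92 for 14 H2A genes, 5.79 for 16 H2B genes, 6.62 for 10 H3 genes and 7.10 for 11 H4 genes.

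The lowest ratios among these 56 genes were those of Hist2h2be and Hist3h2ba. Hist2h2be had 3.93, 4.65 and 3.99 CPM of RNA against 7.51, 5.72 and 3.98 CPM of footprints (0.46 ± 0.17 (SE)), with overlapping assays, and Hist3h2ba 45.9, 42.8 and 49.2 CPM of RNA against 172, 169 and 158 CPM of footprints (1.87). A match to the histone stem-loop, searched on the transcript strand of annotated 3′ UTRs, stood in 35 of the 41 histone genes whose 3′ UTR had at least 16 nt (85.4%) and in 2 of 13467 other genes (0.0149%). These matches were in H2afx and in Hist1h1t, the testis linker histone. Hist1h1t is a histone of this family that the list by name does not hold, so it stands outside the 56 genes and the 5 of class H1, and its ratio was 5.31 ± 0.68 (SE). H2afx encodes the variant H2A.X of DNA damage signalling, whose messages are known to exist both with and without a poly(A) tail. It had 58.5, 64.5 and 60.4 CPM of RNA against 389.7, 377 and 315 CPM of footprints (2.56 ± 0.054 (SE), 30.9% shared), which made it the highest of the replication-independent histones, 7 of 9 of which were higher (median 0.56). The stem-loops of the histone with the highest ratio, of 3 other genes and of H2afx are shown, with the stem-loop in capitals.
Hist1h4f: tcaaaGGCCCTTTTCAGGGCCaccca
Hist1h1d: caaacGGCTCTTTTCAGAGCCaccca
Hist1h3f: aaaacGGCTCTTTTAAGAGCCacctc
Hist3h2ba: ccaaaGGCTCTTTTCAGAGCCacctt
H2afx: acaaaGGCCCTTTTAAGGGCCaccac
The match begins 25 nt after the coding sequence in Hist1h4f, 28 nt in Hist3h2ba and 46 nt in H2afx. The same letters are thus found in genes of high and of lower ratio, and a match in the annotated transcript does not say which 3′ end the cells used.

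The order of mRNAs was nearly the same in the heterozygous Eif3c Xs-J pools. Across 13709 genes measured in both, the 2 genotypes' ratios correlated with r = 0.962, and 2136 of 2137 genes beyond 2-fold in wild type lay on the same side of 0 in the mutant. A test of the difference in ratio between genotypes, with pools as a block, called 125 of 13893 genes (0.9%, edgeR adjusted p under 0.05). Without the block edgeR called 0 genes, with 1364 at an unadjusted p under 0.05 against 2574 with it. For Atf4 the ratio was -4.30 in wild type and -4.23 in the mutant, a difference of 0.08 (edgeR adjusted p = 0.775).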

How the data were processed

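The deposited tables hold, per the labels and file headers, whole-number counts of reads for the 5′ UTR, coding sequence and 3′ UTR of each transcript. The authors' coding counts leave out 15 codons at the start and 5 at the end. The submitters' processing notes name cutadapt, STAR, bedtools and mm10. Their versions, the strand setting, the treatment of reads with several matches and the counted footprint position: not given in the sources used here. Gene symbols came from GENCODE vM21, which held 121271 of the 122941 identifiers in the same version and 1522 in another. Reads of unmatched transcripts were 0.327% of coding counts. Lanes and runs were summed per library. 4 mutant lanes with empty chromosomes were left out, and no wild-type lane was. Each gene was represented by its transcript of highest count, a choice for 65.7% of genes with several coding transcripts.

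Genes were filtered with filterByExpr, scaled by TMM and tested with edgeR 4.0.16 in R 4.3.3, with assay and pool as terms: glmQLFTest for any difference and glmTreat for differences beyond 2-fold, at a Benjamini-Hochberg adjusted p of 0.05. Samples of 1 number share a pool of cells per the labels' protocols. Their deviations correlated at 0.190, 0.197 and 0.278, and all pairings of unlike numbers were below 0. CPM are scaled coding counts. Biological variation between pools was 3.97%. The fits were tested on simulated data. Shared sequence was measured as the percentage of 29-nt stretches of a coding sequence found in transcripts of other genes. Where a transcript's length differed from vM21 (923 transcripts), this was not computed.

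Named genes are the 15 highest and 15 lowest beyond 2-fold with a mean of at least 10 CPM, repeated among genes with little shared sequence, the ends of 50 gene lists, and a fixed set of genes of the Hedgehog pathway, progenitors and translation. Genes and lists were chosen with earlier results of these data known, and no list was tested. Alternatives were DESeq2 1.42.0, limma 3.58.1 (voom), other scalings, no filter, each pool left out, no pool term, whole coding sequences, another transcript choice, both genotypes in 1 fit, and genes with shared sequence left out. Results for a few genes are not reported here.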

Additional observations from a re-analysis of the deposited data

Results flagged for a closer look

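Genes named by rule and all mitochondrially encoded genes were compared between genotypes, and the 15 given here had a footprint-to-RNA ratio that differed between wild-type and heterozygous Eif3c Xs-J pools by edgeR's interaction test with pools as a block. Without the block 0 genes were called at an adjusted p under 0.05. Each difference is the mutant ratio minus the wild-type ratio on the log2 scale. Of the 8 mitochondrially encoded genes tested, 6 were lower in the mutant, and the list median was -1.36 in wild type and -2.55 in the mutant. mt-Nd4 had log2 ratios of -2.06, -2.01 and -1.96 in wild-type pools 1 to 3 and of -3.19, -3.93 and -2.66 in mutant pools, a difference of -1.24 (adjusted p = 0.0102). Of its 29-nt stretches 62.8% were shared with other genes, and the median over the 8 genes was 16.6%. mt-Co1 had log2 ratios of -1.50, -1.24 and -1.32 in wild-type pools 1 to 3 and of -2.66, -3.16 and -1.94 in mutant pools, a difference of -1.23 (adjusted p = 0.0102). mt-Nd5 had log2 ratios of -0.72, -0.37 and -0.69 in wild-type pools 1 to 3 and of -1.78, -2.86 and -1.30 in mutant pools, a difference of -1.38 (adjusted p = 0.0203). mt-Nd2 had log2 ratios of -1.25, -1.15 and -1.10 in wild-type pools 1 to 3 and of -2.40, -3.40 and -1.78 in mutant pools, a difference of -1.35 (adjusted p = 0.0209). mt-Nd1 had log2 ratios of -2.05, -1.80 and -1.96 in wild-type pools 1 to 3 and of -3.20, -3.71 and -2.37 in mutant pools, a difference of -1.15 (adjusted p = 0.0209). mt-Cytb had log2 ratios of -1.37, -1.46 and -1.36 in wild-type pools 1 to 3 and of -2.63, -3.17 and -1.76 in mutant pools, a difference of -1.12 (adjusted p = 0.0287). In these 6 genes mutant pool 2 was the lowest of the 3. The other members, mt-Nd6 (adjusted p = 0.0744) and mt-Nd3 (adjusted p = 1), were not called. Trim71, an RNA-binding protein and let-7 target, had ratios of -2.39, -2.19 and -2.03 in wild type and of -1.13, -0.40 and -1.48 in the mutant, a difference of 1.29 (adjusted p = 0.0144). Tmsb10, a thymosin with 100% of its 29-nt stretches shared with other genes, had ratios of -5.34, -4.18 and -4.50 in wild type and of -4.09, -2.35 and -3.43 in the mutant, a difference of 2.08 (adjusted p = 0.0376). Ftl1, the ferritin light chain with 95.8% shared, had ratios of -2.65, -2.58 and -2.40 in wild type and of -2.15, -2.16 and -2.02 in the mutant, a difference of 0.44 (adjusted p = 0.0376). Rhag, a red-cell ammonium transporter, had ratios of 1.46, 1.57 and 1.48 in wild type and of 0.69, 0.52 and 0.76 in the mutant, a difference of -0.96 (adjusted p = 0.0390). H2afx, the histone variant H2A.X with 30.9% shared, had ratios of 2.71, 2.53 and 2.37 in wild type and of 2.96, 2.90 and 3.20 in the mutant, a difference of 0.48 (adjusted p = 0.0415). Map3k10, a neuronal stress kinase, had ratios of -4.33, -4.32 and -4.04 in wild type and of -3.70, -2.0 and -3.56 in the mutant, a difference of 1.40 (adjusted p = 0.0432). Col1a1, a collagen of mesenchyme, had ratios of 1.04, 1.64 and 0.97 in wild type and of 1.97, 2.01 and 1.59 in the mutant, a difference of 0.65 (adjusted p = 0.0445). Tie1, an endothelial receptor, had ratios of -0.62, -0.53 and -0.47 in wild type and of -0.09, -0.22 and -0.14 in the mutant, a difference of 0.40 (adjusted p = 0.0479). Oaz1, antizyme with 91.3% shared, had ratios of 1.33, 1.40 and 1.14 in wild type and of 1.66, 1.95 and 1.70 in the mutant, a difference of 0.47 (adjusted p = 0.0498). The pools of the genotypes overlapped for Col1a1. The genes were picked by a test on these same pools, so separation of the pools in the others adds no support. In mutant pool 2 Map3k10 had 24.7 CPM of footprints, against 6.04 and 6.86 CPM in mutant pools 1 and 3.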

How the results depend on the processing

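The counts of genes were within 1.5 times of those reported under every alternative run, except genes 2-fold higher, which numbered 361 as reported, 170 with DESeq2 and 225 with library size alone as scale. Library size alone moved the median of all genes from 0.03 to -0.08. Leaving out each pool gave 5179 to 5389 genes higher, 5218 to 5315 lower, and 297 to 326 and 1703 to 1734 beyond 2-fold. Without the pairing by pool (no replicate block), edgeR called 5501 higher and 5297 lower, with 322 and 1736 beyond 2-fold. The genotype difference, 125 genes with the block, was 0 without it. Leaving out genes with over 10% shared stretches, an alternative chosen after seeing the data, kept 278 higher and 1357 lower beyond 2-fold of 11052 tested. For 264 named genes, 3576 of 3620 values under an alternative kept direction and call, 26 lost the call and 12 gained it. With the whole coding sequence, 6 turned: Rpl41 from -6.97 to 1.10, Hnrnpa3 from -0.72 to 1.25, Cenpa from -0.50 to 0.12, Zfp706 from -5.98 to 0.74, Selenow from -1.62 to 0.049, and Eif1, with 0 footprints as reported, to 0.78. The cause was not tested. Of 350 list medians under alternatives, 89 moved by more than the SD over pools. The median of ribosomal proteins was -1.21 with the whole coding sequence. Among tested genes, 23 had 0 coding footprints in every pool, so their ratios are only bounds. Eif1 was among them, with 98.1% of its 29-nt stretches shared. Over its whole coding sequence it had 4121 footprint counts. Why these genes had none was not tested.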
